A study of Mus musculus with 8 samples.

Results

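Keratins, claudins, cadherins and the other proteins of epithelial junctions were followed in HM-1 tumours grown with and without an anti-VEGF antibody. The genes were chosen by symbol, with earlier results of these data known. They comprised the numbered keratins, the claudins, the numbered classical and related cadherins, desmocollins, desmogleins, plakophilins, plakoglobin, zonula occludens proteins, occludin, *Epcam*, *Vim* and the alpha and beta connexins, without *Krt8*, *Krt18* and *Cldn7*. Of the 11667 genes tested, 106 met this rule, and each was read by 1 probe set. They were 24 type I keratins, 17 type II keratins, 21 claudins, a further 9 genes of the *Cldn34* group, 16 cadherins, 8 genes of the desmosome, 7 connexins, and *Tjp1*, *Ocln*, *Epcam* and *Vim*.

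RNA was hybridised from 4 tumours of mice given rat IgG and from 4 tumours of mice given anti-VEGF antibody, which blocks vascular endothelial growth factor. The HM-1 line derives from a mouse ovarian cancer. Its cells were injected under the skin of the right flank of B6C3F1 mice, and per the labels the antibody was injected into the peritoneum from day 3 with 2 injections a week, and tumours were taken at a long diameter of 1.5 cm. All 8 tumours therefore came from the same cell line and from a site outside the ovary, none was untreated, and the study's methods place the start of treatment a day later than the labels. The labels number the tumours without naming animals, so p-values measure the spread between these samples. Tumour pieces hold cells of the host beside the cancer cells, so fewer cells of a type and less RNA per cell cannot be told apart.

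Keratins are the intermediate filaments of epithelial cells and assemble as pairs of a type I and a type II chain, with separate sets in simple epithelia, in the epidermis and in hair. Vimentin is the filament of mesenchymal cells and of many cultured carcinoma lines. Cadherins bind their own kind on the next cell and are anchored to actin, desmosomal cadherins are anchored to keratin, claudins and occludin seal the space between cells at the tight junction, and connexins form the channels of gap junctions. A change from epithelial towards mesenchymal character is commonly read from loss of E-cadherin, *Epcam* and claudins with gain of vimentin and N-cadherin.

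Values are log2 expression, and a difference between the groups is a log2 fold change of anti-VEGF over control. The arrays of the groups differed in spread. The standard deviation over all genes lay between 1.12 and 1.66 on control arrays and between 1.99 and 2.08 on anti-VEGF arrays. Dim genes were therefore lower and bright genes higher with the antibody, with median log2 fold changes of -1.07, -0.44 and 0.60 in the lower, middle and upper tertile of genes by level, which held 27, 62 and 17 of the 106 genes. For this reason the main results stand beside their value after a further quantile normalisation, which gives all arrays the same distribution, and most of these also beside the median fold change of the gene and the 500 genes nearest to it in level. That median was taken on the deposited values throughout and compares with the difference on the deposited values only. Control 3 stood apart from the other arrays, with correlations between 0.774 and 0.869. Which of the scales is nearer to the amount of RNA was not tested.

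Among the genes followed, the filament genes *Vim* and *Krt19* had the highest signals of the group. *Vim* was at 11.30, 11.38, 11.27 and 11.49 in control tumours 1 to 4 and at 11.90, 11.92, 11.93 and 11.93 in anti-VEGF tumours 1 to 4, the order used throughout. *Krt19*, the type I keratin of simple ducts and glands, was at 9.34, 9.14, 8.96 and 9.65 and at 10.06, 9.94, 9.93 and 9.91. The groups did not overlap for either gene. Outside the rule were *Krt8*, the type II partner of *Krt19* in simple epithelia, and *Krt18*, another type I keratin of these epithelia. They had means of 10.67 and 10.76 over the 8 arrays. Thus the tumours carried signal for the simple epithelial keratins and for vimentin together.

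A further 4 genes had a mean of at least 7, which 11.6% of all genes reached. *Cldn2* encodes a claudin that forms channels for cations and water, *Cdh13* encodes T-cadherin, which is held at the membrane by a lipid anchor, *Tjp1* encodes the scaffold ZO-1 of the tight junction, and *Cdh11* encodes a cadherin of mesenchymal cells. The other 100 genes lay between 2.47 and 6.41, with a median of 4.62. The brightness of a probe set depends on its probes as well as on the RNA, so the order of these genes is an order of signals.

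As a guide to the lowest signals, 1268 genes of olfactory and vomeronasal receptors, which are made in sensory neurons, were taken as a floor. In the control tumours their 95th percentile was 5.09, 4.79, 5.47 and 4.56, and with the antibody it was 4.17, 3.81, 3.76 and 3.79. On all 8 arrays 12 of the 106 genes lay above that level, against 24.8% of all genes tested. They were *Vim*, *Krt19*, *Cldn2*, *Cdh13*, *Tjp1*, *Cdh11*, *Gja4*, *Cdh22*, *Gjb2*, *Cldn3*, *Krt86* and *Cldn11*. The count rose to 48 without control 3, on which the floor was highest and only 14 of the genes passed it, and 24 genes passed on none of the arrays.

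The markers most often used for epithelial identity differed in their distance from that floor. *Cdh1*, or E-cadherin, was at 5.94, 5.62, 5.22 and 6.11 in control tumours and at 5.61, 5.0, 5.06 and 5.03 with the antibody, above the floor on 7 of the 8 arrays. The groups overlapped through anti-VEGF 1, and the difference of -0.55 ± 0.23 (SE, n = 4 and 4) had an adjusted p of 0.0562 by limma. *Epcam*, an adhesion protein of simple epithelia, was at 4.74, 4.24, 3.99 and 4.26 and at 4.41, 3.52, 3.72 and 3.63, above the floor on 1 array, with a difference of -0.48 (adjusted p 0.0915 by limma) that turned to 0.30 after quantile normalisation. *Cdh2*, or N-cadherin, was at 5.58, 5.90, 5.22 and 5.74 and at 5.55, 5.69, 5.88 and 5.92, with overlapping groups and a difference of 0.15 (95% confidence interval -0.27 to 0.57). Neither passed the test, but E-cadherin lay near the threshold. On the deposited values its 95% confidence interval was -1.06 to -0.04, beside -0.05 in the nearest genes. Its difference was -0.50 after quantile normalisation (adjusted p 0.127 by limma) and -0.16 with median centring (adjusted p 0.547 by limma). On the deposited values it passed without control 3 (-0.72, adjusted p 0.0100 by limma) and without anti-VEGF 1 (-0.69, adjusted p 0.0285). It did not pass without any other single array (adjusted p between 0.0727 and 0.138).

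**Figure D1:**
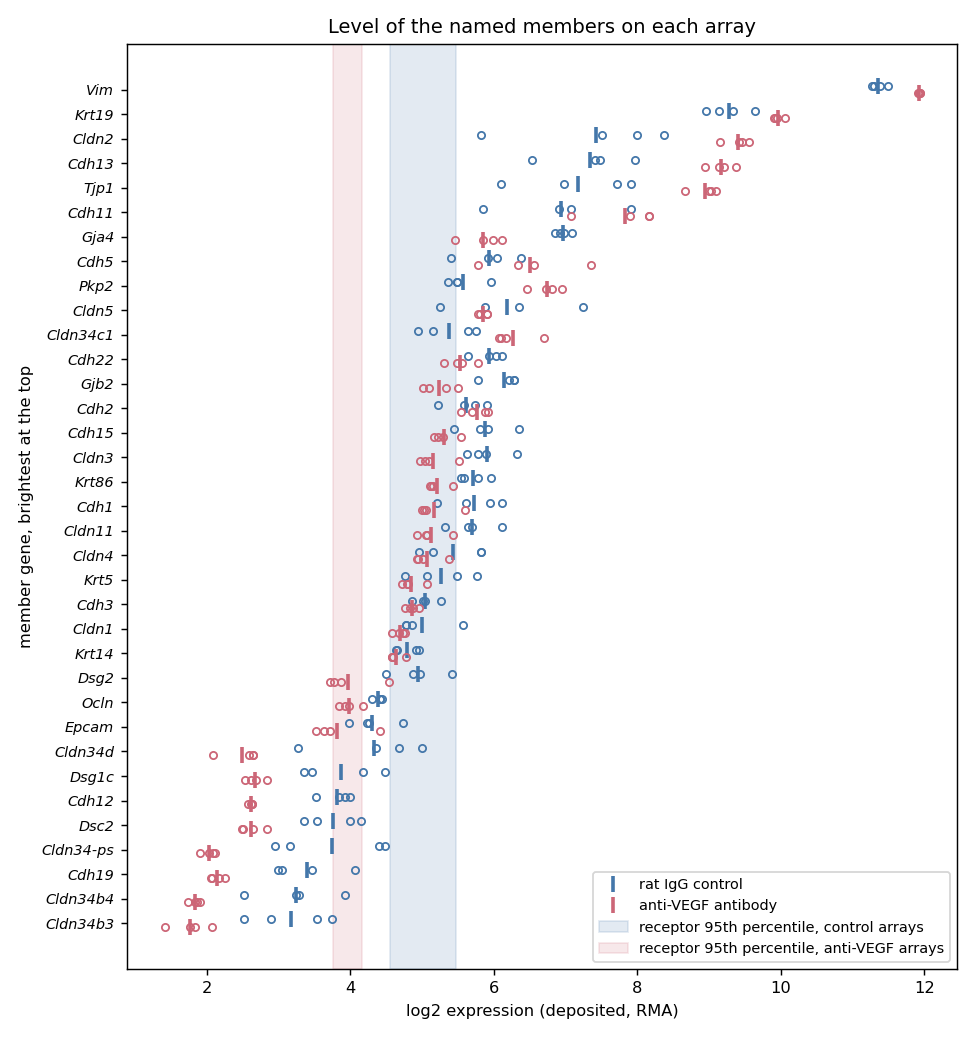
Log2 expression (x axis) of the 35 named genes (y axis, ordered by mean), with 4 control arrays in blue and 4 anti-VEGF arrays in red, circles for arrays and vertical ticks for group means. The shaded bands span the 95th percentile of the receptor genes, from 4.56 to 5.47 on control arrays and from 3.76 to 4.17 on anti-VEGF arrays, and most of the named genes lie in or next to them while *Vim* and *Krt19* lie far above.

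On the deposited values 8 of the 106 genes were higher and 63 lower with the antibody (limma, Benjamini-Hochberg adjusted p under 0.05 over all genes). Of all genes tested, 19.1% were higher and 46.6% lower. The median difference was -0.52 for the 106 genes and -0.44 for all genes, and the median of their nearest genes in level was -0.49. Groups did not overlap for 7 genes that were higher and 58 that were lower, against 19.8% and 41.5% of all genes. Only 10 of the 106 genes had a mean of 6 or more, and of these 6 were higher and 1 was lower. Among all 2964 genes of that level 57.6% were higher and 3.44% lower. The count of lower genes fell to 40, 40 and 41 without anti-VEGF 2, 3 and 4.

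After quantile normalisation 6 of the 106 genes were higher and 5 lower, against 7.4% and 4.41% of all genes, and the median difference was -0.03 against -0.02. The receptor genes give the size of what is lost between the scales. On the deposited values 1193 of the 1268 were lower and 0 higher, with a median of -1.30, and after quantile normalisation 54 were lower and 9 higher. On the deposited values the 106 genes had a smaller share of higher calls than all genes (7.55%) and a larger share of lower calls (59.4%), and after quantile normalisation their shares were 5.66% and 4.72%. Called in the same direction on both scales were 9 genes, of which 5 were higher (5.93% of all genes were) and 4 lower (2.49% of all genes were). Without anti-VEGF 2, 3 or 4 none of the 106 genes passed after quantile normalisation (limma called 1 of all genes each time, and 20, 17 and 20 of the 106 had an unadjusted p under 0.05), and each call given below on that scale has this limit.

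**Figure D2:**
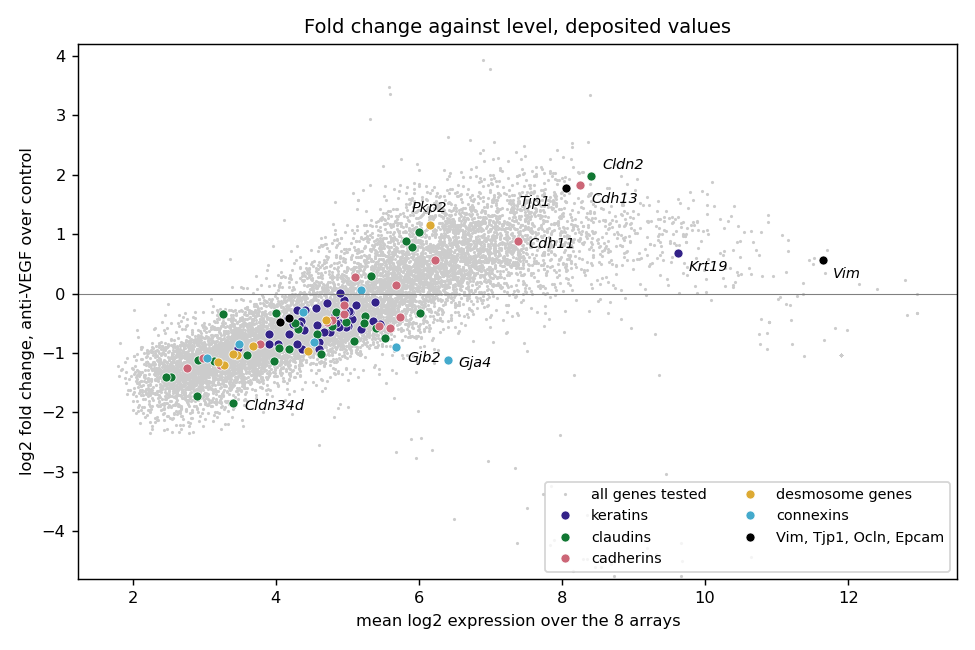
Log2 fold change of anti-VEGF over control (y axis, deposited values) against the mean log2 expression over 8 arrays (x axis), for all 11667 genes in grey and the 106 genes coloured by family. The keratins, claudins and desmosome genes of low level lie in the downward cloud that all dim genes form. *Cldn2*, *Cdh13*, *Tjp1* and *Pkp2* lie outside it, above 0 and at means between 6.16 and 8.41.

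Higher on both scales were *Cldn2*, *Cdh13*, *Tjp1*, *Pkp2* and *Vim*. *Cldn2*, the pore-forming claudin, was at 7.51, 8.0, 5.82 and 8.38 in control tumours and at 9.16, 9.42, 9.46 and 9.55 with the antibody. The groups did not overlap, and control 3 was the lowest by more than 1 log2 unit. The difference was 1.97 ± 0.45 (SE, 3.92-fold, adjusted p 0.0043 by limma) and 1.24 ± 0.33 after quantile normalisation (2.36-fold, adjusted p 0.0448). The median of its nearest genes in level was 0.98.

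*Cdh13*, or T-cadherin, was at 7.47, 7.41, 6.54 and 7.96 and at 8.94, 9.21, 9.14 and 9.38. All anti-VEGF tumours lay above all control tumours, also after quantile normalisation, where control tumours were between 7.62 and 8.01 and anti-VEGF tumours between 8.55 and 8.94. The difference was 1.82 ± 0.27 on the deposited values (SE, 3.54-fold, adjusted p 0.0011 by limma), beside 0.98 in the nearest genes. It was 0.94 ± 0.14 after quantile normalisation (1.92-fold, adjusted p 0.0174). T-cadherin is known from vascular and muscle cells and as the membrane partner of adiponectin, and the arrays do not tell which cells of the tumour carried it.

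*Tjp1*, which ties claudins and occludin to actin, was at 6.98, 7.72, 6.10 and 7.91 and at 8.66, 9.0, 9.10 and 9.02. The groups did not overlap. The difference was 1.77 ± 0.35 on the deposited values (SE, 3.41-fold, adjusted p 0.0024 by limma), beside 1.01 in the nearest genes. After quantile normalisation it was 0.95 ± 0.22 (1.93-fold, adjusted p 0.0311). *Ocln*, the strand protein that ZO-1 binds, was lower on the deposited values and is described with the desmosome genes.

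*Pkp2*, the plakophilin that links desmosomal cadherins to desmoplakin in heart and simple epithelia, was at 5.49, 5.48, 5.36 and 5.96 and at 6.46, 6.81, 6.95 and 6.73. The groups did not overlap. The difference was 1.16 ± 0.19 on the deposited values (SE, 2.24-fold, adjusted p 0.0013 by limma), above the 0.41 of the nearest genes. After quantile normalisation it was 0.87 ± 0.18 (1.83-fold, adjusted p 0.0249). *Pkp2* was the sole member of the desmosome group that rose.

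*Vim* rose by 0.56 ± 0.15 on the deposited values (SE, 1.48-fold, adjusted p 0.0075 by limma), less than the 0.86 of its nearest genes. After quantile normalisation it rose by 0.84 ± 0.17 (adjusted p 0.0238). With cyclic loess, a normalisation that levels fold changes along the signal, its difference was -0.41 (adjusted p 0.557), so its direction depended on the scale. *Krt19* rose by 0.69 ± 0.18 on the deposited values (1.61-fold, adjusted p 0.0080 by limma), beside 0.86 in the nearest genes, and differed by 0.037 ± 0.18 after quantile normalisation (adjusted p 0.912) and by -0.36 with cyclic loess. For *Cldn2*, *Cdh13*, *Tjp1* and *Pkp2* cyclic loess gave increases of 0.94, 0.80, 0.77 and 0.74 with adjusted p between 0.0067 and 0.0146. The order of these 4 genes with quantile normalisation is not settled, since their confidence intervals overlap.

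The upstream sequence is shown for *Cldn2*, *Tjp1* and *Vim*, since these 3 of the 5 genes higher on both scales had an entry in the promoter table, while *Cdh13* and *Pkp2* are named only. Each is the 250 bases before the gene start in RefSeq's annotation of GRCm38.p6, written 5′ to 3′ on the gene's strand, for *Cldn2* at chrX:139800558-139800807 (+ strand), *Tjp1* at chr7:65371245-65371494 (- strand) and *Vim* at chr2:13574061-13574310 (+ strand). Capitals mark TATAAA, the core of the TATA box. The searches covered both strands, and TTTATA is the same box read on the other. The motif CAGGTG, which SNAI and ZEB repressors bind, reads CACCTG there. The third motif was ACGTG, the core of the hypoxia response element, with the reverse CACGT. The letters CACGTG hold ACGTG on both strands and were counted once per window.
Cldn2: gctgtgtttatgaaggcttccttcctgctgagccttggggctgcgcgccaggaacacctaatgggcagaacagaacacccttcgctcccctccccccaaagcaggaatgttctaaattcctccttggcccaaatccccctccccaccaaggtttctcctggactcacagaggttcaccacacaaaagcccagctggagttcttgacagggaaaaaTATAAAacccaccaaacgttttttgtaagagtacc
Tjp1: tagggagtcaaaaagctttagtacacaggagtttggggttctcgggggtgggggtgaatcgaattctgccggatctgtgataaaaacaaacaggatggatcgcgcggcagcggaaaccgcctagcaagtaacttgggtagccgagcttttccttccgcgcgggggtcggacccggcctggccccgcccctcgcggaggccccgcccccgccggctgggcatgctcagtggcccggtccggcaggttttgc
Vim: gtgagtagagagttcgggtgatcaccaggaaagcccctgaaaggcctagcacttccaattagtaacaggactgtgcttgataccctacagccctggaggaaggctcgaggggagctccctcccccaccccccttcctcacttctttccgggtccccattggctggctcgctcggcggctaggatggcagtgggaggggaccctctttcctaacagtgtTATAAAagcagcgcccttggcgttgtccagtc
TATAAA began 35 bases before the start of *Cldn2* and 32 bases before that of *Vim*, and none of the 3 motifs was found in the *Tjp1* window. Windows were found for 71 of the 106 genes, some with several starts, which gave 80 windows. TATAAA was in 27.5% of these and in 12.4% of all 32851 windows of the same length, CAGGTG in 22.5% and 17.2%, and ACGTG in 11.25% and 16.6%. Genes that lie next to each other and are copies of each other, such as keratins, share sequence, so these windows are not independent.

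**Figure D3:**
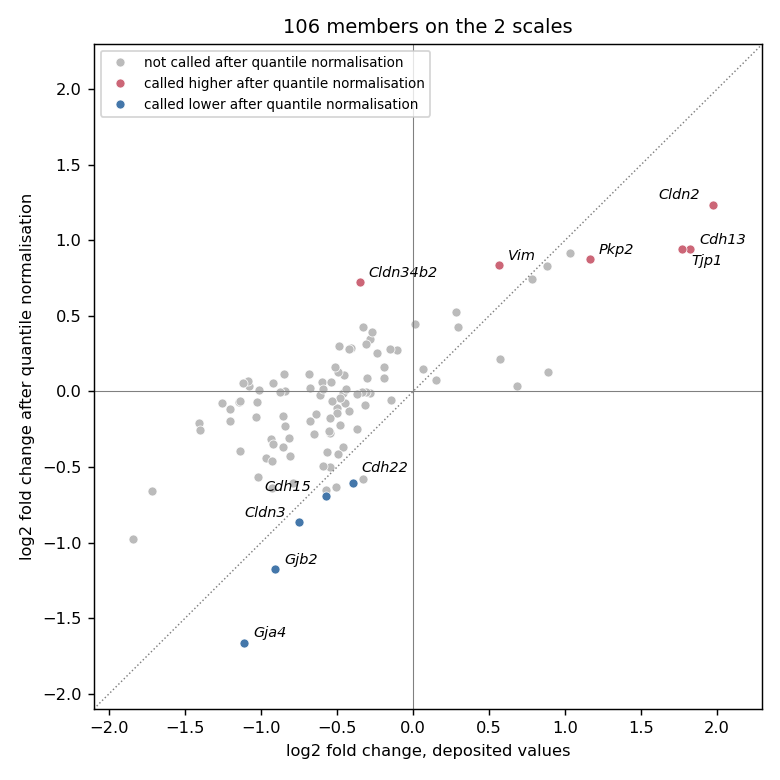
Log2 fold change of the 106 genes on the deposited values (x axis) and after quantile normalisation (y axis), with the line of equality dotted and genes called on the second scale in red (6 higher) and blue (5 lower). Most grey points below 0 on the x axis sit near 0 on the y axis, while *Gja4*, *Gjb2*, *Cldn3*, *Cldn2*, *Cdh13*, *Tjp1* and *Pkp2* stay away from it.

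Lower on both scales were *Gja4*, *Gjb2*, *Cldn3* and *Cdh15*. *Gja4*, which encodes connexin 37 of arterial endothelium and of the ovarian follicle, was at 7.10, 6.98, 6.85 and 6.92 in control tumours and at 6.11, 5.84, 5.46 and 5.99 with the antibody. The groups were separate, and on the deposited values the control tumours lay within a narrow range. After quantile normalisation the control tumours were at 7.37, 7.19, 8.24 and 6.94, with control 3 highest. The anti-VEGF tumours were then between 5.49 and 5.97. The difference was -1.11 ± 0.18 on the deposited values (SE, 2.16-fold lower, adjusted p 0.0013 by limma), while genes of that level had a median of 0.61 in the other direction. After quantile normalisation it was -1.66 ± 0.27 (adjusted p 0.0174).

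*Gjb2*, which encodes connexin 26 of glandular epithelia, was at 6.22, 5.78, 6.29 and 6.28 and at 5.50, 5.01, 5.09 and 5.33. The groups did not overlap. The difference was -0.91 ± 0.19 on the deposited values (SE, 1.88-fold lower, adjusted p 0.0029 by limma), beside 0.18 in the nearest genes. After quantile normalisation it was -1.17 ± 0.30 (adjusted p 0.0415). On that scale control 3 was at 7.45 and the other control tumours were between 5.85 and 6.32. *Gjb1*, which encodes connexin 32 of liver and exocrine glands, was at 5.59, 4.97, 4.65 and 4.53 and at 4.41, 4.14, 3.83 and 4.11. It fell by 0.81 on the deposited values (adjusted p 0.0145 by limma), and its difference of -0.31 after quantile normalisation did not pass (adjusted p 0.409).

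*Cldn3*, a sealing claudin of simple epithelia, was at 5.89, 5.62, 5.78 and 6.33 and at 5.51, 5.04, 4.97 and 5.10. Every control tumour lay above every anti-VEGF tumour, with anti-VEGF 1 nearest to them. The difference was -0.75 ± 0.20 on the deposited values (SE, 1.68-fold lower, adjusted p 0.0089 by limma), beside 0.0001 in the nearest genes. After quantile normalisation it was -0.86 ± 0.22 (adjusted p 0.0393). On that scale the control tumours were at 5.83, 5.66, 6.59 and 6.37. *Cldn7*, which the rule left out, differed by -1.02 on the deposited values (adjusted p 0.0046 by limma) and by -0.98 after quantile normalisation (adjusted p 0.0365).

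*Cdh15*, or M-cadherin of muscle precursors, whose nearest genes had a median of 0.075, was at 6.35, 5.92, 5.45 and 5.81 and at 5.54, 5.29, 5.17 and 5.23. The groups overlapped on the deposited values, since anti-VEGF 1 was above control 3. The difference was -0.57 ± 0.21 (SE, adjusted p 0.0316 by limma) and -0.69 after quantile normalisation (adjusted p 0.0341), and on the deposited values it passed in 3 of the 8 fits that each left out 1 array, failing without control 1 or 2 or anti-VEGF 2, 3 or 4 with adjusted p between 0.0582 and 0.0885. Of the 15 skeletal muscle markers measured 10 were lower and 0 higher on the deposited values, against 46.6% and 19.1% of all genes. Their median difference was -0.59, beside -0.43 in their nearest genes. None of the 15 was called after quantile normalisation (3 lower at an unadjusted p under 0.05, and 2 called lower with cyclic loess). The mean level of these markers was between 4.90 and 5.23 in control tumours and between 4.36 and 4.66 with the antibody. *Pvalb*, *Acta1*, *Ckm* and *Myog* of that list were above the receptor floor on all 8 arrays. The part of muscle in the result was not tested. *Cdh22*, a cadherin first described in pituitary and brain, differed by -0.40 on the deposited values (adjusted p 0.0670) and by -0.60 after quantile normalisation (adjusted p 0.0256).

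The windows of the 3 genes with the largest decreases among those called lower on both scales are shown with the same searches, at chr4:127314040-127314289 (- strand) for *Gja4*, chr14:57104703-57104952 (- strand) for *Gjb2* and chr5:134985964-134986213 (+ strand) for *Cldn3*, with matches in capitals.
Gja4: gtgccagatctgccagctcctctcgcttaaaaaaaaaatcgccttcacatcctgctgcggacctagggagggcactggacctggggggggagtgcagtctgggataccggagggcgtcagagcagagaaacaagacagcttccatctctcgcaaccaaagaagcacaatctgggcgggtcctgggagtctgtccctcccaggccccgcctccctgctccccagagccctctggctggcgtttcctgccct
Gjb2: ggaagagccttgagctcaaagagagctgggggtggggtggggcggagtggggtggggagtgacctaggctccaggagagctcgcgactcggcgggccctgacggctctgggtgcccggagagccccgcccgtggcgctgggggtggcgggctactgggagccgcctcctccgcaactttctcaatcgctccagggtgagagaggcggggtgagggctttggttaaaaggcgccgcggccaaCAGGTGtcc
Cldn3: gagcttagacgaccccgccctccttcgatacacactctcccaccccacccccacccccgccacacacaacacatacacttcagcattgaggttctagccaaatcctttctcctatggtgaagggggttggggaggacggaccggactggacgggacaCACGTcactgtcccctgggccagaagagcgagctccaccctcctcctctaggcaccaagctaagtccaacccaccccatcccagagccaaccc
*Gjb2* had CAGGTG beginning 9 bases before the start, *Cldn3* had ACGTG 93 bases before the start, written there as CACGT of the other strand, and *Gja4* had none of the 3 motifs. None of the 3 windows held TATAAA. A match of these letters is no evidence that a factor binds there.

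Markers of pancreatic acinar cells, the enzyme-secreting cells of the exocrine pancreas, were also lower with the antibody. Of 34 such genes written 24 were measured, and all 24 were lower with the antibody on the deposited values and 18 after quantile normalisation, against 46.6% and 4.41% of all genes. The median differences of the 24 were -4.26 and -4.32. Their mean level was 10.71, 9.93, 9.21 and 10.48 in control tumours and 9.40, 4.28, 4.75 and 6.75 with the antibody. Anti-VEGF 1 thus lay within the range of the control tumours, but above control 3 only, the array that stood apart. On anti-VEGF 1 *Gjb2* was at 5.50 and *Gja4* at 6.11, below the lowest control values of 5.78 and 6.85. *Cldn3* at 5.51 was just below the lowest control value of 5.62. *Cdh1* at 5.61 was within the control range, again above control 3 (5.22) only and just below control 2 (5.62). Anti-VEGF 1 was the highest of its group for 79 of the 106 genes, against 58.3% of all genes. This array also had the smallest spread of its group, with a standard deviation of 1.99 against 2.07 to 2.08. Its receptor floor was the highest of the group, at 4.17 against 3.76 to 3.81. Dim genes make up most of the 106, of which 96 had a mean under 6, and the share among genes of like level was not taken. The part of acinar RNA in the lower values of *Gjb2*, *Cldn3*, *Gjb1* and *Cdh1* was not tested.

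**Figure D4:**
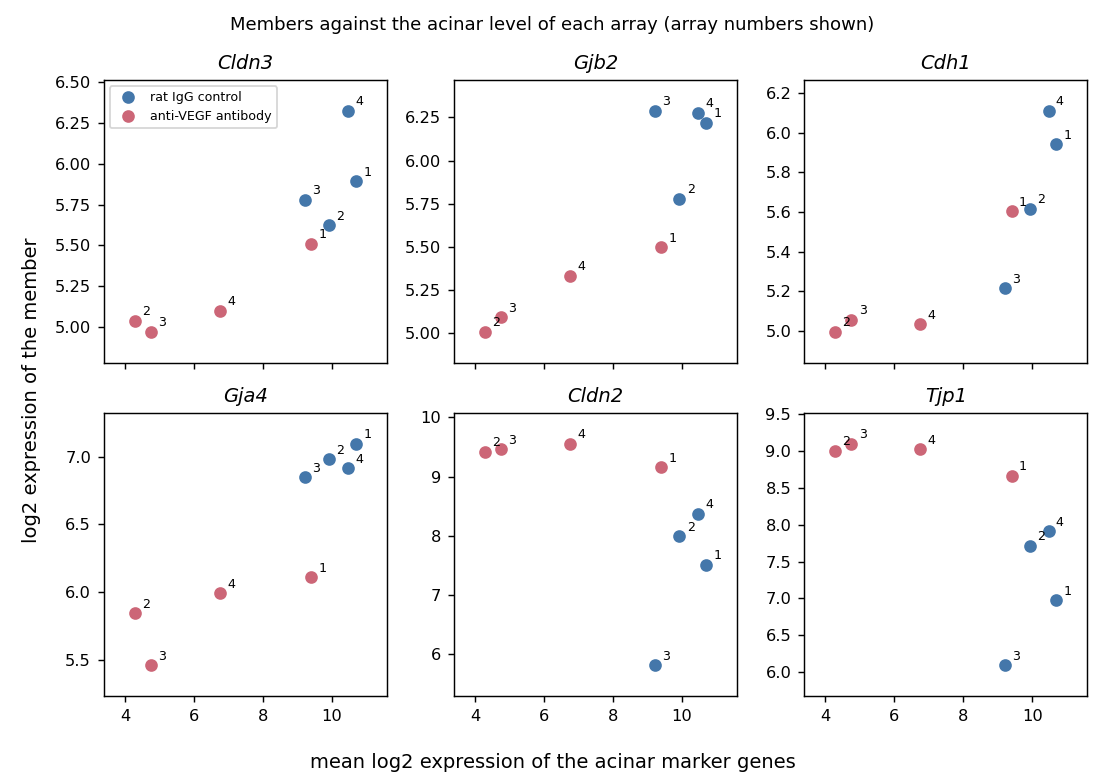
Log2 expression of 6 genes (y axes, which differ in range and do not start at 0) against the mean log2 expression of 24 acinar markers on the same array (x axis), with control arrays in blue, anti-VEGF arrays in red and the array number beside each point. Anti-VEGF 1 has an acinar mean of 9.40, within the control range but above control 3 only. On anti-VEGF 1 *Gja4* and *Gjb2* are below all control arrays and *Cldn2* and *Tjp1* above them. *Cdh1* is there among the control arrays, again above control 3 only.

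Vascular junction genes are of interest because the antibody acts on the factor that maintains endothelium. *Cdh5*, or VE-cadherin, was at 5.92, 6.38, 5.40 and 6.05 in control tumours and at 5.79, 6.56, 6.34 and 7.36 with the antibody. The groups overlapped and the difference of 0.57 did not pass (95% confidence interval -0.13 to 1.28), nor did that of 0.22 after quantile normalisation. *Cldn5*, the claudin of endothelial tight junctions, was at 7.24, 6.35, 5.26 and 5.87 and at 5.78, 5.90, 5.80 and 5.91, with overlapping groups and a wide control range, and its difference of -0.33 did not pass (95% confidence interval -1.09 to 0.43), nor did that of -0.58 after quantile normalisation. *Gja5*, the other connexin of arterial endothelium, was at 4.66, 4.67, 4.43 and 4.41 and at 4.28, 4.28, 4.12 and 4.25, with groups that did not overlap and a difference of -0.31 (adjusted p 0.0938 by limma), which turned to 0.31 after quantile normalisation and to 0.29 with cyclic loess. Of these endothelial genes *Gja4* passed on both scales and *Cdh5*, *Cldn5* and *Gja5* did not pass on either. Of 11 endothelial markers measured 2 were lower (*Sox17* and *Ramp2*) and 0 higher on the deposited values, against 46.6% and 19.1% of all genes. None of the 11 was called after quantile normalisation (1 lower at an unadjusted p under 0.05, and 1 called lower with cyclic loess). Their mean level lay between 5.11 and 5.42 in control tumours and between 4.87 and 5.25 with the antibody.

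The 40 keratins other than *Krt19* were dim, with means between 3.47 and 5.46. All 24 type I keratins lie on chromosome 11 and all 17 type II keratins on chromosome 15. Of the type I keratins 1 was higher and 10 lower on the deposited values, with a median difference of -0.37 beside -0.50 in their nearest genes. Of the type II keratins 14 were lower and 0 higher (0 also at an unadjusted p under 0.05), with a median of -0.56 beside -0.47. The lower shares of the 2 types were 41.7% and 82.4%, against 46.6% of all genes and 61.3% of genes with a mean under 6. After quantile normalisation none of the 41 keratins was called by limma (1 higher and 3 lower at an unadjusted p under 0.05, and with cyclic loess *Krt36* called higher and *Krt86* and *Krt79* lower), and the differences of the 40 lay between -0.64 and 0.45.

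*Krt5* and *Krt14*, the pair of basal epidermal cells, are examples of keratins that did not pass on either scale. *Krt5* was at 5.76, 5.49, 4.76 and 5.08 and at 5.06, 4.81, 4.73 and 4.80, and *Krt14* at 4.63, 4.66, 4.91 and 4.96 and at 4.78, 4.59, 4.59 and 4.58. The groups overlapped for both, with differences of -0.42 and -0.15 (adjusted p 0.116 and 0.395), and of -0.13 and 0.28 after quantile normalisation. *Krt1*, the type II keratin of upper epidermis, was at 4.64, 4.47, 4.44 and 4.51 and at 3.92, 3.83, 3.70 and 3.92, a decrease of 0.68 on the deposited values (adjusted p 0.0039) beside -0.68 in its nearest genes, and a difference of 0.020 after quantile normalisation. *Krt4*, of internal stratified epithelia, fell by 0.93 (adjusted p 0.0090) and differed by -0.46 after quantile normalisation (adjusted p 0.257).

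The hair keratins include 1 of the brighter genes. *Krt86*, a type II hair keratin and with *Krt19* the other keratin of the group above the receptor floor on all arrays, was at 5.97, 5.54, 5.78 and 5.58 and at 5.43, 5.12, 5.13 and 5.15, a decrease of 0.51 (adjusted p 0.0224, and between 0.0685 and 0.0719 without anti-VEGF 2, 3 or 4) and a difference of -0.63 after quantile normalisation that did not pass (adjusted p 0.103). *Krt31*, a type I hair keratin, fell by 0.59 (adjusted p 0.0252) and differed by -0.50 after quantile normalisation (adjusted p 0.113). Neighbouring hair keratins are near copies of each other, so signal of one may be read by the probes of another. Of 19 hair follicle markers measured 15 were lower on the deposited values and 3 after quantile normalisation, and of 29 keratinocyte markers 16 and 0 (2 lower and 3 higher at an unadjusted p under 0.05, and 1 called lower with cyclic loess). Of all genes 46.6% were lower on the deposited values, or 61.3% of those with a mean under 6, and 4.41% after quantile normalisation. The median differences of the 2 lists on the deposited values were -0.90 and -0.56, beside -0.72 and -0.53 in their nearest genes. The mean level of the hair follicle markers was between 4.45 and 5.06 in control tumours and between 3.68 and 3.97 with the antibody, and that of the keratinocyte markers between 4.54 and 4.97 and between 4.05 and 4.38. The part of skin in these keratin values was not tested.

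Of the 21 claudins outside the *Cldn34* group 2 were higher (9.52%) and 12 lower (57.1%) on the deposited values, against 19.1% and 46.6% of all genes. Their median difference was -0.50 beside -0.39 in their nearest genes, and 1 was higher and 1 lower after quantile normalisation. Beside *Cldn2* the higher one was *Cldn6*, a claudin of embryonic epithelia that is re-expressed in some ovarian tumours. It was at 4.71, 5.95, 5.01 and 6.26 and at 6.11, 6.84, 6.72 and 6.38, with overlapping groups, and its difference of 1.03 on the deposited values and 0.92 after quantile normalisation passed on the former only (adjusted p 0.191 on the latter). *Cldn4*, the usual companion of *Cldn3* in ovarian carcinoma, was at 5.82, 5.82, 5.15 and 4.96 and at 5.38, 5.01, 4.93 and 4.94, with a difference of -0.37 that did not pass (adjusted p 0.177), nor did that of -0.25 after quantile normalisation. *Cldn1*, of the epidermal barrier, differed by -0.31 (adjusted p 0.1995) and by 0.089 after quantile normalisation. *Cldn11*, of myelin and Sertoli cells, fell by 0.57 (adjusted p 0.0299, and between 0.0528 and 0.091 without control 1 or 2 or anti-VEGF 2, 3 or 4) and differed by -0.65 after quantile normalisation (adjusted p 0.0875).

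The 9 *Cldn34* genes, which lie on the X chromosome, are close copies whose signals may be shared. Of these 1 was higher and 7 lower (77.8%, against 46.6% of all genes), with a median of -1.137 beside -1.135 in their nearest genes. After quantile normalisation 1 was higher and 0 lower (2 lower at an unadjusted p under 0.05). *Cldn34d* was at 4.36, 3.28, 4.99 and 4.68 and at 2.65, 2.58, 2.09 and 2.64, and its decrease of 1.84 was the largest of the 106 genes on the deposited values (adjusted p 0.0018), beside -0.998 in its nearest genes. After quantile normalisation it differed by -0.98 (adjusted p 0.133). *Cldn34-ps*, *Cldn34b4* and *Cldn34b3* fell by 1.72, 1.41 and 1.40 and were not called after quantile normalisation. *Cldn34c1* went the other way, from 5.65, 5.16, 4.95 and 5.76 to 6.08, 6.69, 6.17 and 6.10, an increase of 0.89 (adjusted p 0.0076) with a difference of 0.83 after quantile normalisation (an adjusted p just above 0.05). *Cldn34b2* differed by -0.35 on the deposited values and was called higher after quantile normalisation, by 0.72 (adjusted p 0.0194), at a level under 4 on all arrays.

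Of the 16 cadherins 1 was higher (6.25%) and 7 lower (43.8%) on the deposited values, against 19.1% and 46.6% of all genes, with a median difference of -0.42 beside -0.35 in their nearest genes. After quantile normalisation 1 was higher and 2 lower. *Cdh11* was at 6.92, 7.92, 5.84 and 7.07 and at 7.08, 8.17, 8.16 and 7.89, with overlapping groups and a difference of 0.89 that did not pass (adjusted p 0.0692), beside 0.91 in the nearest genes and 0.13 after quantile normalisation. *Cdh3*, or P-cadherin, was at 5.26, 5.05, 4.86 and 5.01 and at 4.84, 4.76, 4.88 and 4.95, a difference of -0.19 (adjusted p 0.295) and of 0.16 after quantile normalisation. *Cdh12* and *Cdh19*, cadherins of neural and glial cells, fell by 1.20 and 1.26 on the deposited values, lay above the receptor floor on no array, and were not called after quantile normalisation.

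All 8 desmosome genes were called on the deposited values, 7 lower (87.5%, against 46.6% of all genes) and *Pkp2* higher, with a median difference of -0.99 beside -0.93 in their nearest genes. After quantile normalisation limma called *Pkp2* higher and 0 lower (0 lower also at an unadjusted p under 0.05 and with cyclic loess). On chromosome 18 lie 6 of the 8. *Dsg2*, the desmoglein of simple epithelia and heart, was at 4.88, 4.50, 4.97 and 5.41 and at 4.55, 3.72, 3.77 and 3.87. It fell by 0.97 (adjusted p 0.0071) with anti-VEGF 1 above control 2, and its difference of -0.44 after quantile normalisation did not pass (adjusted p 0.267). *Dsc2*, its desmocollin partner, was at 4.0, 3.36, 4.15 and 3.54 and at 2.84, 2.49, 2.51 and 2.65, a decrease of 1.14 (adjusted p 0.0019, beside -1.11 in its nearest genes) that became a difference of -0.07 after quantile normalisation. *Dsg1c*, an epidermal desmoglein, fell by 1.20 and differed by -0.20 after quantile normalisation. *Ocln* was at 4.44, 4.31, 4.42 and 4.41 and at 4.18, 3.99, 3.85 and 3.93, a decrease of 0.41 (adjusted p 0.0355, and between 0.0912 and 0.1153 without anti-VEGF 2, 3 or 4) against a difference of 0.29 after quantile normalisation.

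Of the proteins that anchor these molecules, few were measured. *Vcl*, which encodes vinculin that ties cadherin complexes to actin, was at 8.09, 8.74, 6.51 and 9.02 and at 9.69, 10.07, 10.17 and 10.15, an increase of 1.93 (adjusted p 0.0048) and of 1.20 after quantile normalisation (adjusted p 0.0270). It was the 1 gene called higher on both scales among 6 adherens junction and catenin genes. *Camsap3* was lower on the deposited values (-0.69) and not called after quantile normalisation (adjusted p 0.316), and *Nectin2* was called lower after it by 0.61 (adjusted p 0.0470) against a difference of 0.15 on the deposited values. *Cd151*, a tetraspanin of hemidesmosomes, rose by 1.61 (adjusted p 0.0029) and by 0.76 after quantile normalisation (adjusted p 0.0405), and among the 6 desmosome and hemidesmosome partners 2 were higher (*Ppl* was the other) and 2 lower, *Dsp* and *Perp*. Of 9 tight junction partners *Magi1*, *Tjap1* and *Ybx3* were higher and *Crb3*, which sets apical polarity, lower by 0.93 (adjusted p 0.0026), and none of the 9 was called after quantile normalisation (2 lower at an unadjusted p under 0.05, and 2 called lower with cyclic loess). Among 6 gap junction partners and other connexins *Gje1* fell by 1.09 and none was called after quantile normalisation (1 lower at an unadjusted p under 0.05, and 1 called lower with cyclic loess).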

How the data were processed

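Tumour RNA was measured on 8 Affymetrix mouse transcriptome arrays, 4 per group. The authors deposited log2 expression from robust multi-array averaging, and the submitters' processing notes name Transcriptome Analysis Console and RMA. The choice of the 13266 deposited probe sets is not given in the sources used here. Groups came from the labels. The platform annotation gave 1 symbol to 11743 probe sets, several to 800 and none to 723, and 11595 probe sets were found in the RefSeq table. Probe sets with 1 symbol were used, the highest mean standing for a gene, which gave 11667 genes. Of the several-symbol probe sets 3 hold keratin or claudin genes and were left out. Genes were tested with limma 3.58.1 (lmFit, eBayes) in R 4.3.3, with 1 term for treatment, and p-values adjusted by Benjamini-Hochberg over all genes, with a threshold of 0.05. Arrays have no read depth, and their number limits the precision.

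The members and the lists were chosen with earlier results of these data known. Named genes were the 12 brightest above the receptor level, up to 8 genes that rose most (7 qualified) and the 8 that fell most among called genes with separate groups, the genes called on both scales, a fixed set of well-known junction genes and, from other lists, up to 3 genes of smallest p each. *Cldn6*, *Gjb1*, *Gja5*, *Cldn34b2*, *Krt1*, *Krt4*, *Krt31* and markers beyond that number were added after their values were seen. *Jup*, *Pkp3*, *Gja1*, *Krt7* and *Krt20* were not analysed here. The alternatives were quantile normalisation, median centring, cyclic loess, filters on dim genes, averaging of probe sets, a replicate block, trend and robust fitting, array weights, a 2-fold threshold and each array left out. Quantile normalisation with each array left out, and with the block, was added after seeing the data. The fit was tested on simulated data, with 50 genes changed at each size. It recovered 3 at a log2 difference of 0.5, 27 at 1, 40 at 1.5 and 49 at 2, so small differences were often missed. Of 11467 unchanged genes 7 were called. Both groups were simulated with the same spread, so the test does not cover the difference in spread between the groups of arrays. Plots used matplotlib 3.10.9 under Python 3.11.15.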

Additional observations from a re-analysis of the deposited data

Results flagged for a closer look

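In 7 of the 70 groups of 4 arrays examined for the 35 named genes, 1 array lay far from the other 3. Chance marks about 5% of such groups. With the antibody, anti-VEGF 1 was highest for *Cdh1* at 5.61 (the others between 5.0 and 5.06), for *Krt14* at 4.78 (4.58 to 4.59) and for *Krt86* at 5.43 (5.12 to 5.15). *Cldn34c1* was highest on anti-VEGF 2 at 6.69 (6.08 to 6.17), and *Cldn34d* was lowest on anti-VEGF 3 at 2.09 (2.58 to 2.65). Among control tumours, control 2 was highest for *Cldn1* at 5.57 (4.77 to 4.86) and lowest for *Gjb2* at 5.78 (6.22 to 6.29).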

How the results depend on the processing

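The count of lower genes depended most on the processing. Against 63, it was 25 with median centring, 9 with cyclic loess, 5 with quantile normalisation, 1 with quantile normalisation and the replicate block, 38 without the lowest tertile, 12 without genes below the median level, 18 at a 2-fold threshold, and between 40 and 69 with 1 array left out. It was 40, 40 and 41 without anti-VEGF 2, 3 and 4. The count of higher genes, 8, was 14 with median centring, 4 with quantile normalisation and the block, 5 at a 2-fold threshold, and between 7 and 10 with 1 array left out. Of all genes called, 29.1% were higher on the deposited values, 62.6% after quantile normalisation, 55.2% with median centring and 54.4% with cyclic loess, and median centring moved the median of all genes from -0.44 to -0.05. The 12 genes above the receptor level were 6 against the 99th percentile, 67 against the 75th, and between 12 and 48 with 1 array left out (48 without control 3).

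After quantile normalisation the calls rested on the number of anti-VEGF arrays. Without anti-VEGF 2, 3 or 4, limma called 0 of the 106 genes and 1 of all genes in each case, while 20, 17 and 20 of the 106 had an unadjusted p under 0.05. Across the 8 arrays left out, the increase on that scale ranged from 0.86 to 1.01 for *Cdh13*, from 0.78 to 1.02 for *Pkp2*, from 0.83 to 1.06 for *Tjp1*, from 0.74 to 0.99 for *Vim* and from 0.89 to 1.42 for *Cldn2*, and the difference from -1.83 to -1.49 for *Gja4*, from -1.42 to -0.92 for *Gjb2*, from -1.05 to -0.76 for *Cldn3* and from -0.81 to -0.58 for *Cdh15*. Directions held, and the calls held in 5, 5, 4, 4, 3, 5, 3, 2 and 4 of the 8 fits.

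Directions of single genes turned as follows. With cyclic loess the differences were -0.0008 for *Cdh11*, 0.12 for *Cdh3*, 0.062 for *Cldn1*, 0.26 for *Epcam*, 0.28 for *Krt14*, -0.36 for *Krt19*, 0.28 for *Ocln* and -0.41 for *Vim*. With quantile normalisation, with or without the block, they were 0.16 for *Cdh3*, 0.089 for *Cldn1*, 0.30 for *Epcam*, 0.28 for *Krt14* and 0.29 for *Ocln*. With median centring they were 0.20 for *Cdh3*, 0.087 for *Cldn1*, 0.022 for *Cldn4*, 0.061 for *Cldn5* and 0.24 for *Krt14*. With 1 array left out *Cldn5* differed by between -0.64 (without control 3) and 0.022 (without control 1). The causes were not tested.

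Same-numbered arrays shared only a number, with correlations of their deviations of 0.190, 0.126, -0.0367 and 0.163. With the replicate block on the deposited values 8 genes were higher and 61 lower. With quantile normalisation and the block, 4 of the 9 genes called on both scales lost their call, which were *Cldn2* (adjusted p 0.0596), *Gjb2* (0.0596), *Cdh15* (0.0594) and *Cldn3* (0.0766). *Cdh1* passed on the deposited values with the block (0.0447), with trend and robust fitting (0.0328) and with array weights (0.0036). It did not pass with median centring (-0.16, adjusted p 0.547 by limma) or cyclic loess (adjusted p 0.0516), and it passed in 5 of 18 alternative settings. Trend and robust fitting gave 7 and 68, array weights 9 and 75, and the mean of all probe sets 8 and 63. Dim signals limit many of these genes, since 12 of the 106 lay above the receptor level on all 8 arrays and 24 on none.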

Other observations

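Other branches of the same gene families gave few calls that held on both scales. Of 17 protocadherins and other cadherin superfamily genes 3 were higher and 11 lower on the deposited values, with a median difference of -0.65 beside -0.50 in their nearest genes, and 1 was called after quantile normalisation. *Pcdh18*, a protocadherin, rose by 0.58 (adjusted p 0.0246 by limma) and by 0.89 after quantile normalisation (adjusted p 0.0265). *Fat1*, the giant cadherin that restrains growth through the Hippo pathway, was at 7.80, 8.35, 6.70 and 8.31 in control tumours and at 8.89, 9.18, 9.05 and 9.11 with the antibody, an increase of 1.27 (adjusted p 0.0071) and a difference of 0.39 after quantile normalisation that did not pass (adjusted p 0.102).

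Of 10 genes of other intermediate filaments and filament-associated proteins 2 were higher and 5 lower on the deposited values, with a median difference of -0.34 beside -0.43 in their nearest genes. After quantile normalisation 1 was higher and 0 lower (0 lower also at an unadjusted p under 0.05 and with cyclic loess). *Tchh*, 1 of the 5 lower genes, was also counted among the hair follicle markers. *Nefl*, the light neurofilament of neurons, was at 4.38, 5.20, 4.64 and 5.07 and at 6.00, 6.22, 6.06 and 5.91, with separate groups, and rose by 1.22 (adjusted p 0.0015) and by 1.40 after quantile normalisation (adjusted p 0.0245). *Nes*, or nestin, rose by 1.02 (adjusted p 0.0119) and its difference of 0.91 after quantile normalisation did not pass (adjusted p 0.158).

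Of 12 transcription factors of the epithelial to mesenchymal change that were measured, *Twist2* was higher and 6 were lower on the deposited values, the epithelial factors *Grhl1*, *Grhl2*, *Grhl3*, *Ovol1* and *Elf3* and the mesenchymal factor *Foxc2*, whose decrease of 0.87 was the largest of the list (adjusted p 0.0047). The differences of *Grhl1*, *Grhl2* and *Ovol1* after quantile normalisation were -0.046, 0.058 and 0.17. Those of *Grhl3*, *Elf3* and *Foxc2* were -0.35, -0.46 and -0.31, and none of the 6 was called on that scale. After quantile normalisation the single call was *Snai1*, a repressor of E-cadherin, which was lower by 1.02 (adjusted p 0.0354) against a difference of -0.19 on the deposited values (adjusted p 0.308). Other cell types gave smaller lists, in which 19.1% of all genes higher and 46.6% lower is the background on the deposited values and 7.4% and 4.41% after quantile normalisation. Of 3 fibroblast genes 2 were higher on the deposited values and 0 after quantile normalisation (2 at an unadjusted p under 0.05). Of 6 mesothelial and ovarian surface genes 4 were higher and 1 lower on the former and 2 higher and 1 lower on the latter. That list held *Krt8*, *Krt18* and *Cldn7*, which the rule left out and which are not particular to these cells. *Krt8* was higher and *Cldn7* lower on both scales, and *Krt18* was higher on the deposited values only. Of the others *Upk1b* was higher on both scales, *Msln* on the deposited values only, and *Bnc1* was not called. Of 11 leukocyte genes 5 were higher and 3 lower, and then 2 higher and 0 lower (1 lower at an unadjusted p under 0.05). Of 10 liver genes 7 were lower, and then 0 (2 at an unadjusted p under 0.05). Of 5 intestine genes 4 were lower, and then 1, *Zg16*, which was also counted among the acinar markers. Of 4 neural and retinal genes 1 was higher, and then 0 (0 also at an unadjusted p under 0.05 and with cyclic loess).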
